A study of Mus musculus with 15 samples.

Results

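The transcripts described here are those of 10 ion channels of the transient receptor potential (TRP) family that are counted among the temperature sensors, in cultured mouse white adipocytes kept at 37°C or moved to a cool 31°C. The members were chosen by name: Trpv1, Trpv2, Trpv3, Trpv4, Trpm2, Trpm3, Trpm4, Trpm7, Trpm8 and Trpa1, which are 10 of the 18804 genes in the count table. RNA was sequenced from adipocytes differentiated from mesenchymal stem cells of C57BL/6J mice, progenitors taken from the ears of wild-type animals. All cells had received the same adipogenic induction with methylisobutylxanthine, dexamethasone, insulin and troglitazone, and all were harvested on day 16 after it. The methods of the paper name troglitazone in the passage on adipocyte precursors but rosiglitazone in the passage on cell culture. The day 0 group stayed at 37°C throughout, the day 1 group went into the cool incubator on day 15, and the day 12 group on day 4. Each group held 5 libraries, 15 in all.

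TRP channels are cation channels of the plasma membrane and of internal membranes, and most of them let calcium into the cell. Several open more readily when the temperature crosses a range that is characteristic of the channel, which makes them the thermometers of sensory nerve endings and of skin. Many also answer to chemical ligands, to stretch or to swelling, and in fat cells calcium entry through some of them is known to act on differentiation and on thermogenic genes. RNA levels do not give channel protein or current, neither of which was measured in these libraries.

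Trpm7 and Trpv4 transcripts made up most of the summed level of the 10 genes in every group, and the genes of the cold sensors Trpm8 and Trpa1 were at the limit of detection. Trpm2, a warm-activated channel gated by ADP-ribose, fell from 0.603 ± 0.137 CPM at day 0 to 0.0387 ± 0.0277 CPM at day 1 and 0.0867 ± 0.0464 CPM at day 12 (mean ± SD, n = 5; CPM, counts scaled to a common library size with TMM factors). Trpv2 fell at both times as well. Trpv1, the heat and capsaicin receptor, was higher at day 12 than in either other group. Trpm7 rose and Trpv4 fell by less than the fold limit of 1.5, but with little spread between libraries, and per kilobase of merged exons Trpv4 was the higher of both at day 0 and Trpm7 at both times at 31°C.

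The total count ranged from 64648178 to 133270973 per library, and the exposure was visible in Cirbp and Rbm3, which encode cold-inducible RNA-binding proteins and were called higher at day 1 (log2 fold changes of 2.58 and 1.96) and at day 12 (1.91 and 2.76). No pair of libraries differed by as little as sampling noise. Summed adipocyte markers ranged from 4572 to 5260 CPM at day 0, from 5683 to 6350 CPM at day 1 and from 5048 to 5623 CPM at day 12, over 8 genes that include adiponectin and perilipin. At day 12, Fabp4 and Cd36 of this list were called higher and Adipoq, Cidec and Pparg lower, where 13% of all genes were called higher and 16.2% lower. Neither the labels nor the methods tell whether libraries of the same group are different mice or different dishes, so the p-values measure the spread between these libraries, which may be technical. In these bulk libraries, fewer cells of a type and less RNA per cell cannot be told apart.

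Promoter sequences of the 5 genes on which the results turn are shown because Trpv2 and Trpm2 fell at both times, Trpv1 moved the other way at day 12, and Trpm7 and Trpv4 exchanged their order per kilobase of exon. Each is the run of 250 bases before the transcription start in RefSeq (GRCm38.p6), read 5′ to 3′ on the strand of the gene. Capitals mark matches, on either strand, to 6 motifs: the GC box GGGCGG, the CCAAT box CCAAT, the TATA box TATAAA, the heat shock element GAANNTTC, the cAMP response element TGACGTCA, and TCCCCGCC, known as a mild cold response element of the Cirbp promoter. The Trpm2 stretch lay at chr10:77969873-77970122 (minus strand), the Trpv2 stretch at chr11:62574236-62574485 (plus strand) and the Trpv1 stretch at chr11:73233899-73234148 (plus strand). Those of Trpv4 and Trpm7 lay at chr5:114658422-114658671 (minus strand) and chr2:126876262-126876511 (minus strand).
Trpm2: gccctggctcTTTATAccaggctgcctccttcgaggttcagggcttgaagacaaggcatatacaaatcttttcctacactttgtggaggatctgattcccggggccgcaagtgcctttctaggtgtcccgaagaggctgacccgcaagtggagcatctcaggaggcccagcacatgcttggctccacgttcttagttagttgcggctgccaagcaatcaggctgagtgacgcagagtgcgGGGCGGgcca
Trpv2: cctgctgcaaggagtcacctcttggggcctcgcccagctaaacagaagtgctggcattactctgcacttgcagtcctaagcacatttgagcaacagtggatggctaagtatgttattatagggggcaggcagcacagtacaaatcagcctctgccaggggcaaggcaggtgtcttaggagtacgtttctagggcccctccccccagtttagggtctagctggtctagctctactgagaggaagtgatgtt
Trpv1: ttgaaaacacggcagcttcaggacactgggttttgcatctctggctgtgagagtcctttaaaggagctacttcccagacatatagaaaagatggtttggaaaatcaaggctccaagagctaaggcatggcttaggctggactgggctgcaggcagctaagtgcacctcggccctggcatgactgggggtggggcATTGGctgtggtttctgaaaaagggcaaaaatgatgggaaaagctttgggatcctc
Trpv4: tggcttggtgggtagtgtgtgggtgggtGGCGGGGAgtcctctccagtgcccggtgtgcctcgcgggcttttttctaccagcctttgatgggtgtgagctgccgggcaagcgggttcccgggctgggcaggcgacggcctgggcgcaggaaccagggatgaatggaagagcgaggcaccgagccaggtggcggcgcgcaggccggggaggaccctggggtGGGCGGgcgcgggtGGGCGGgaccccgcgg
Trpm7: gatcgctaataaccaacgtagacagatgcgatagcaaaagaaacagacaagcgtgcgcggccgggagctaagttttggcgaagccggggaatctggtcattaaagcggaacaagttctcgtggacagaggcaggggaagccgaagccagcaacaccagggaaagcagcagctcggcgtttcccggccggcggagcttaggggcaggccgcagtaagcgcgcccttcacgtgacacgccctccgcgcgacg

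The Trpm2 promoter held 1 match to the GC box and 1 to the TATA box, the latter 240 bases before the start. Trpv2, which fell with Trpm2, held none to any of the 6 motifs. It could therefore share none with Trpm2, and the motifs do not tell whether both genes are under common control. Trpv1 held 1 match to the CCAAT box. Trpv4 held 2 matches to the GC box and 1 to TCCCCGCC, and Trpm7 held none. TCCCCGCC was present in 4.64% of the 32851 RefSeq promoters of this length, the GC box in 32.7%, the CCAAT box in 33.8% and the TATA box in 12.4%. The heat shock element was present in 6.69% and the cAMP response element in 1.55% of all promoters, and in none of these 5 stretches. Of the other members, Trpm3 also held TCCCCGCC once. Its level is given with the heat sensors. The GC content of the Trpv4 stretch was 72% and that of Trpm7 was 60.4%, against a median of 52.4% over all promoters. In all, 8 of the 10 members were in the promoter table, and Trpm4 and Trpa1 were the exceptions. Trpv2 had 3 starts in that table, of which the start of the annotated gene was used.

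The question put to all 10 genes was which of them are expressed at all. A gene was called expressed with a mean of at least 1 CPM in some group, low if it passed the filter on low counts but stayed under 1 CPM, and trace if it failed the filter but had over 3 counts in some library. By this rule 5 genes were expressed (Trpv2, Trpv4, Trpm3, Trpm4 and Trpm7), 2 were low (Trpv1 and Trpm2) and 3 were at trace level (Trpv3, Trpm8 and Trpa1). The detection limit, set at 3 counts, was 0.0238 CPM in the deepest library and 0.0428 CPM in the shallowest, and covers counting error only.

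**Figure D1:**
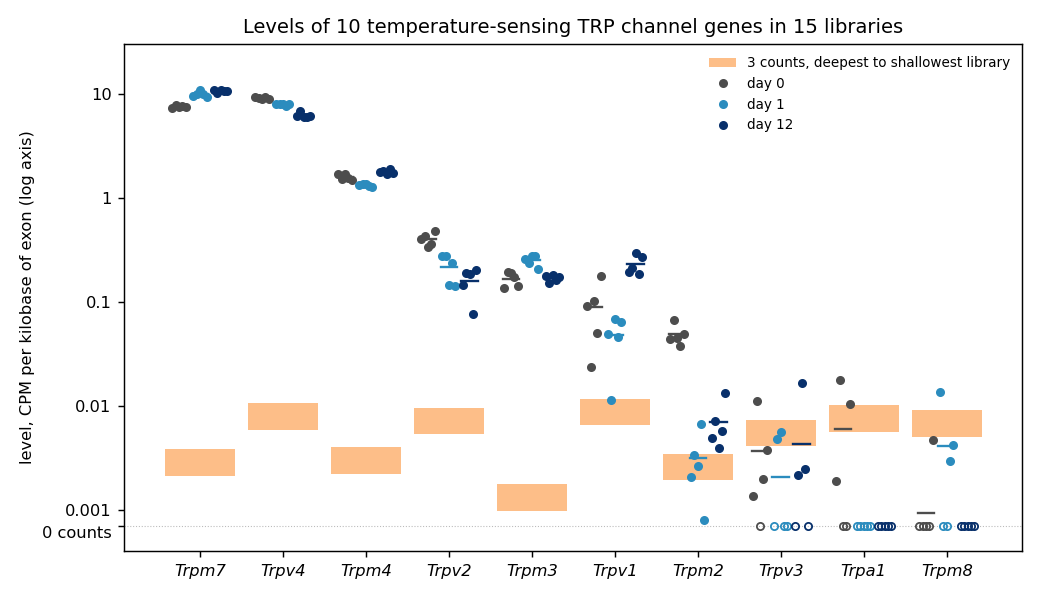
Level of each TRP channel gene in CPM per kilobase of exon (log axis) in the 15 libraries, with 1 point per library, a short line at each group mean, open points for libraries at 0 counts, and an orange band at 3 counts from the deepest to the shallowest library. Trpm7 and Trpv4 stand above all others, and the points of Trpv3, Trpa1 and Trpm8 lie in or near the band or at 0.

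Levels of different genes were compared per kilobase of merged exons, since a long transcript gives more reads. At day 0 the highest level was that of Trpv4, at 9.07 ± 0.231 CPM per kilobase (SD, n = 5), followed by Trpm7 at 7.48 ± 0.184 and Trpm4 at 1.58 ± 0.0987 CPM per kilobase. Trpv2 stood at 0.400 ± 0.0570 and Trpm3 at 0.166 ± 0.0268 CPM per kilobase. The ranges of these 5 genes over the libraries did not overlap. Trpv1, at 0.0880 ± 0.0579 CPM per kilobase, overlapped with Trpm3 above it and with Trpm2 below it, at 0.0484 ± 0.0110. Among the 12888 tested genes with an exon length, Trpv4 was at percentile 69.0 of the day 0 level per kilobase, Trpm7 at 64.2, Trpm4 at 31.1, Trpv2 at 17.0, Trpv1 at 7.57 and Trpm2 at 4.51.

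At day 1 and day 12 the order at the top was the opposite. Trpm7 stood at 9.90 ± 0.632 CPM per kilobase at day 1 and 10.7 ± 0.284 at day 12, and Trpv4 at 7.86 ± 0.153 and 6.21 ± 0.349 CPM per kilobase, with no overlap between the genes in any group. Trpm3 (0.249 ± 0.0296 CPM per kilobase) and Trpv2 (0.213 ± 0.0657) overlapped at day 1. At day 12 Trpv1 was the fourth of the 10 genes at 0.229 ± 0.0478 CPM per kilobase, above Trpm3 at 0.168 ± 0.0118 without overlap, and Trpm3 overlapped with Trpv2 at 0.159 ± 0.0511. Of the summed level per kilobase of the 10 genes, Trpv4 took 48.1% at day 0, 40.1% at day 1 and 32.3% at day 12, and Trpm7 took 39.7%, 50.5% and 55.5%.

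Changes were tested with the quasi-likelihood test of edgeR on all 14293 genes that passed the filter. Calls required an adjusted p (Benjamini-Hochberg) below 0.05 as well as a change of more than 1.5-fold. When day 1 was set against day 0, 2 of the 7 TRP genes tested were called, Trpv2 and Trpm2, both lower, where 13.4% of all genes tested were called lower and 7.71% higher. At day 12 against day 0, Trpv2 and Trpm2 were called lower and Trpv1 higher, where 16.2% of all genes were called lower and 13% higher. At day 12 against day 1, Trpv1 and Trpm2 were called higher, where 10.6% of all genes were called higher and 8.53% lower. The adjusted p alone passed for 6 of the 7 genes in each comparison, against 71.5%, 76.6% and 67.2% of all genes, so passing it was the common case in these libraries. The median log2 fold change of the 7 was -0.27, 0.02 and 0.11 in the order of the 3 comparisons, and that of all genes was -0.01, 0.01 and 0.01. The 7 do not stand for all members, since Trpm2 passed the filter only through the day 0 libraries. Both comparisons with day 0 use the same day 0 libraries.

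**Figure D2:**
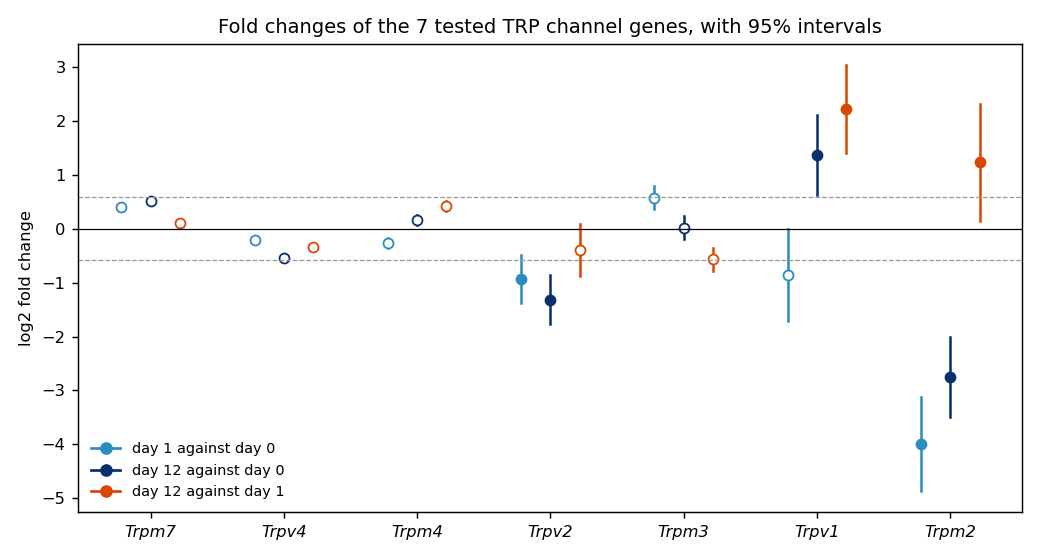
Log2 fold change (vertical axis) of the 7 tested TRP channel genes in the 3 comparisons, with 95% intervals from the edgeR fit. Filled points were called, open points were not, and dashed lines mark the fold limit of 1.5. Trpm2 lies at -3.99 at day 1 and -2.75 at day 12 against day 0, and Trpv1 at 1.38 at day 12 against day 0.

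Trpv1 encodes the heat receptor that is also opened by capsaicin and protons (chr11:73234292-73261242, plus strand, GRCm38, 3.68 kilobases of exon). Its 5 libraries at day 0 held 0.333, 0.0861, 0.374, 0.182 and 0.644 CPM, at day 1 0.179, 0.0417, 0.25, 0.167 and 0.235 CPM, and at day 12 0.701, 0.769, 1.07, 0.684 and 0.992 CPM, in the order of the replicate numbers. Every day 12 library lay above every library of the other groups, while the ranges at day 0 and day 1 overlapped, and the day 0 libraries spread widely, from 8 to 59 counts. Day 12 stood above day 0 by 1.38 ± 0.359 (SE) on the log2 scale (adjusted p = 0.00136) and above day 1 by 2.23 ± 0.393 (adjusted p = 2.45e-05). At day 1 against day 0 it was -0.85 ± 0.414 with a 95% interval from -1.71 to 0.00433, and was not called (adjusted p = 0.0695). This value depended on single libraries: it was -0.47 without day 0 replicate 5 and -0.62 without day 1 replicate 2, neither of them called, and it was called lower without day 0 replicate 2 (-1.09) or replicate 4 (-0.99). It was also called lower with scaling by reference genes (-0.95), with the library series as a covariate (-0.95) and with the replicate block (-0.83).

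Trpv2 encodes a channel known for its activation by strong heat in sensory neurons and for its expression in brown fat (chr11:62574486-62600515, plus strand, 4.49 kilobases of exon). Its day 0 libraries held 1.81, 1.91, 1.49, 1.62 and 2.15 CPM, its day 1 libraries 1.23, 1.22, 0.652, 1.05 and 0.637 CPM, and its day 12 libraries 0.651, 0.845, 0.826, 0.342 and 0.91 CPM. No library at 31°C reached the lowest day 0 value, and the day 1 and day 12 ranges overlapped. The log2 fold change was -0.92 ± 0.215 for day 1, with an adjusted p of 0.00051, and -1.31 ± 0.219 for day 12, with an adjusted p of 8.47e-06. The difference between day 12 and day 1 was -0.39 ± 0.231, with a 95% interval from -0.869 to 0.0863, and did not pass (adjusted p = 0.139).

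Trpm3 encodes a heat-activated channel that is also opened by the steroid pregnenolone sulfate (chr19:22139046-22995410, plus strand, 24.4 kilobases of exon, of which 2.57% overlap genes of the opposite strand). Day 0 libraries held 3.31, 4.7, 4.61, 4.25 and 3.44 CPM, day 1 libraries 6.33, 5.74, 6.64, 6.72 and 5 CPM, and day 12 libraries 4.35, 3.72, 4.37, 3.91 and 4.22 CPM. All day 1 libraries lay above all others, and day 12 lay within the range of day 0. At day 1 the log2 fold change was 0.58 ± 0.102 (adjusted p = 1.92e-05), just under the limit of 0.585, so that it was not called although the adjusted p passed. It passed the limit in several alternatives, up to 0.65 without day 1 replicate 5. At day 12 it was 0.02 ± 0.104 (adjusted p = 0.851) against day 0 and -0.56 ± 0.103 (adjusted p = 4.14e-05) against day 1. The latter was within the fold limit, but Trpm3 was called lower at day 12 against day 1 without day 1 replicate 5.

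**Figure D3:**
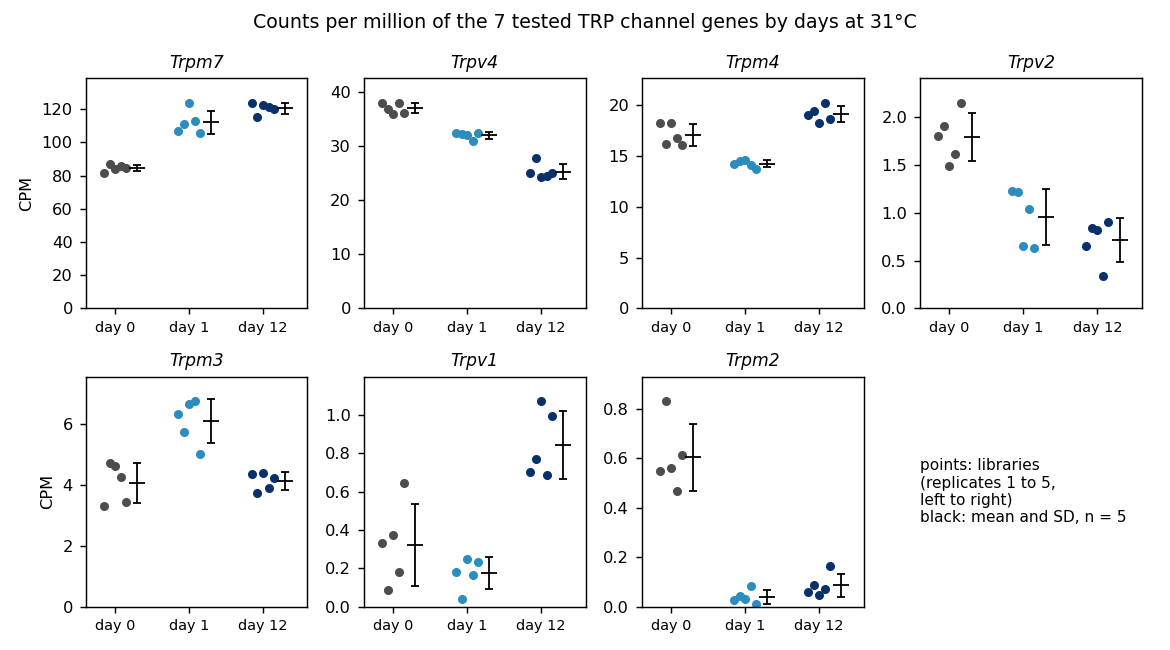
CPM of the 7 tested TRP channel genes in each library (points, replicates 1 to 5 from left to right) with the mean and SD of each group (black, n = 5), on axes that start at 0. Trpm2 drops from a mean of 0.603 to 0.0387 CPM at day 1, and each Trpv1 library at day 12 lies above 0.68 CPM.

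Trpv4 encodes a channel opened by warmth and by cell swelling, known from cartilage and from fat (chr5:114622152-114658421, minus strand, 4.08 kilobases of exon). Its libraries held 37.9, 36.9, 36, 38 and 36.1 CPM at day 0, 32.4, 32.2, 32.1, 31 and 32.5 CPM at day 1, and 25, 27.8, 24.3, 24.5 and 25 CPM at day 12. The 3 groups did not overlap. The log2 fold change was -0.21 ± 0.0360 at day 1 (adjusted p = 1.71e-05), -0.55 ± 0.0364 at day 12 (adjusted p = 1.26e-12), and -0.34 ± 0.0368 at day 12 against day 1 (adjusted p = 1.56e-08), all within the fold limit. The 5 chondrocyte genes summed to 3671 to 4403 CPM at day 0 and 3905 to 4062 CPM at day 1. At day 12 they summed to 1128 to 1222 CPM. The sum was thus lower at day 12 but not at day 1, when Trpv4 had already fallen and none of the 5 was called. Of these 5, Acan, Sox9 and Comp were called lower at day 12, where 16.2% of all genes were. Comp fell most, with a log2 fold change of -2.02. Matn3 was called higher, where 13% of all genes were. Col2a1, the collagen that defines cartilage, had means of 149 CPM at day 0 and 182 CPM at day 12. The part of chondrocytes in the Trpv4 level was not tested.

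Trpm2 encodes a channel opened by warmth together with ADP-ribose, an oxidative stress signal (chr10:77907722-77970563, minus strand, 12.5 kilobases of exon, 0.73% of them shared with other genes). Its raw counts were 69, 77, 57, 41 and 56 at day 0, 2, 3, 3, 6 and 1 at day 1, and 6, 7, 4, 5 and 16 at day 12, which is 0.466 to 0.829 CPM at day 0, 0.00979 to 0.0837 CPM at day 1 and 0.0486 to 0.165 CPM at day 12. Every day 0 library lay far above every library at 31°C, and 4 of the 5 day 1 libraries were at or under the detection limit of 3 counts. The log2 fold change was -3.99 ± 0.420 for day 1, with an adjusted p of 7.70e-09, and -2.75 ± 0.361 for day 12, with an adjusted p of 2.34e-07. Trpm2 entered this test through the day 0 libraries only, the group in which it was high. Without the filter on low counts it was also called lower at both times. Pooled over libraries, the 300 counts at day 0 against 15 at day 1 give a ratio of 16.6 after scaling, with a 95% interval from 9.92 to 30.1, and against 38 counts at day 12 a ratio of 6.76, from 4.81 to 9.74. These intervals cover counting error only.

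Trpm2 at day 12 was nevertheless above day 1, by 1.24 ± 0.525 on the log2 scale (adjusted p = 0.041), with overlapping ranges. The pooled ratio was 2.46, with a counting interval from 1.32 to 4.81. This call rests on few counts and was lost without any of 6 libraries: day 1 replicate 1 (1.14), replicate 2 (1.28), replicate 3 (1.19) or replicate 5 (0.95), and day 12 replicate 2 (1.24) or replicate 5 (0.84).

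Macrophages are known to express Trpm2. The summed level of 6 macrophage genes, most of it Cd14, ranged from 26.4 to 33.7 CPM at day 0, from 42.2 to 48.6 CPM at day 1 and from 30.1 to 34.4 CPM at day 12, and Ptprc, which defines blood cells, had at most 7 counts in any library. Of the 5 macrophage genes tested, 2 were called higher at day 1 (Csf1r and Cd14) and 2 at day 12 (Csf1r and Lyz2), where 7.71% and 13% of all genes were. Cd68 had means of 10.3 CPM at day 1 and 5.14 CPM at day 12, with a log2 fold change at day 12 against day 0 of -0.55 (adjusted p = 5.15e-06) within the fold limit. Mrc1 was not called at either time. The part of such cells in the Trpm2 level was not tested.

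Trpm4 encodes a calcium-activated channel that passes monovalent cations and not calcium, and whose opening depends on temperature (chr7:45302632-45333780, minus strand, 10.8 kilobases of exon). Its libraries held 18.2, 16.2, 18.3, 16.7 and 16.1 CPM at day 0, 14.2, 14.6, 14.6, 14.1 and 13.8 CPM at day 1, and 19, 19.5, 18.3, 20.2 and 18.7 CPM at day 12. All day 1 libraries lay below the others, and the lowest day 12 library lay within the range of day 0. The log2 fold change was -0.27 ± 0.0456 at day 1 (adjusted p = 1.46e-05), 0.16 ± 0.0448 at day 12 (adjusted p = 0.00257) and 0.42 ± 0.0457 at day 12 against day 1 (adjusted p = 1.45e-08), each within the fold limit. With total counts in place of TMM the last value was 0.60, past the limit, where the median of all genes stood at 0.18.

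Trpm7 encodes a channel for magnesium, calcium and zinc that carries a protein kinase at its end (chr2:126791565-126876230, minus strand, 11.3 kilobases of exon). Its libraries held 81.6, 87, 84.1, 86.1 and 84.3 CPM at day 0, 107, 111, 124, 113 and 106 CPM at day 1, and 124, 115, 123, 121 and 120 CPM at day 12. Every library at 31°C lay above every day 0 library, and the day 1 and day 12 ranges overlapped. The log2 fold change was 0.41 ± 0.0352 at day 1 (adjusted p = 2.62e-10), 0.51 ± 0.0351 at day 12 (adjusted p = 2.39e-12) and 0.11 ± 0.0350 at day 12 against day 1 (adjusted p = 0.0106). With total counts in place of TMM the day 12 value was 0.70, past the limit, but on that scale the median of all genes stood at 0.21 and not at 0.01.

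The ratio of Trpm7 to Trpv4 within a library does not depend on the scaling. Per kilobase it was 0.775, 0.848, 0.841, 0.817 and 0.842 at day 0, 1.19, 1.24, 1.39, 1.31 and 1.17 at day 1, and 1.78, 1.5, 1.82, 1.78 and 1.73 at day 12. On this scale Trpv4 was above Trpm7 in all 5 day 0 libraries and below it in all 10 libraries at 31°C, and the 3 groups did not overlap. The side of 1 on which a library lies rests on the merged exon lengths (4.08 kilobases for Trpv4 and 11.3 for Trpm7), which need not be those of the isoforms expressed, while differences between the groups do not. In CPM, without the length, Trpm7 was above Trpv4 in all 15 libraries. The mean log2 ratio was higher by 0.61 at day 1 and by 1.06 at day 12 than at day 0, and by 0.45 at day 12 than at day 1 (two-sided exact permutation test of 5 against 5 libraries, p = 0.00794 and adjusted p = 0.00794 over the 3 tests, the smallest p this design allows). This ratio was chosen after its values were seen, and groups without overlap always give this p, so the test adds nothing to the lack of overlap.

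**Figure D4:**
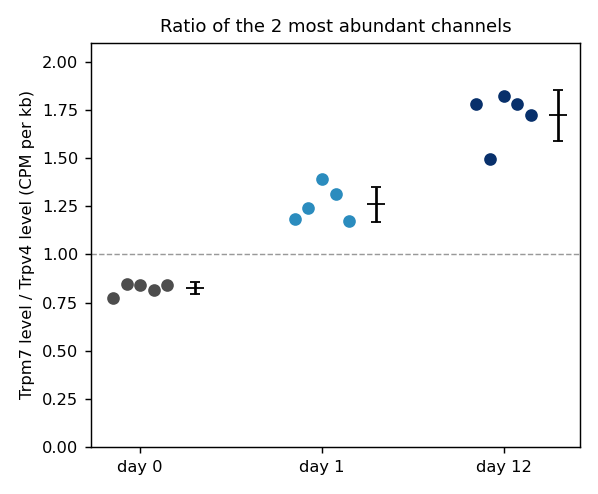
Ratio of the Trpm7 level to the Trpv4 level, both in CPM per kilobase of exon, in each library (points) with the mean and SD of each group (black, n = 5); the dashed line marks equal levels. The 5 day 0 libraries lie between 0.775 and 0.848, and all 10 libraries at 31°C lie above 1.17.

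Trpv3, Trpm8 and Trpa1 had too few counts for the count model, so their raw counts are given. Trpv3, a warm sensor of keratinocytes that lies 6.14 kilobases after Trpv1 on the same strand (chr11:73267388-73300363), had 1, 6, 0, 1 and 2 counts at day 0, 0, 2, 3, 0 and 0 at day 1, and 0, 1, 8, 1 and 0 at day 12. It had over 3 counts in 2 libraries only, day 0 replicate 2 and day 12 replicate 3. The keratinocyte genes Krt5, Krt14 and Krt1 had at most 11, 2 and 4 counts in any library. The sum over the 5 keratinocyte genes, most of it Trp63, ranged from 47.9 to 55.0 CPM at day 0, from 20.6 to 23.1 CPM at day 1 and from 58.1 to 66.3 CPM at day 12, and its part in the Trpv3 counts was not tested.

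Trpm8, the menthol and cold receptor of sensory neurons (chr1:88277661-88389293, plus strand, overlapped by a gene of the opposite strand over 8.2% of exon bases), had 2 counts in 1 day 0 library, 5, 0, 0, 1 and 2 counts at day 1, and 0 in all day 12 libraries. Trpa1, an irritant receptor that has been linked to noxious cold (chr1:14872648-14918862, minus strand), had 1, 7, 0, 0 and 4 counts at day 0 and 0 in all 10 libraries at 31°C. Both genes were thus at 0 in most libraries. Among genes of sensory neurons, where both channels are best known, Scn10a had at most 11 counts and Tac1 at most 14 in any library. The 5 genes of that list summed to between 3.32 and 5.02 CPM over the 15 libraries. Prph was called lower at day 1 (-2.19) and day 12 (-1.88), and Calca at day 12, where 13.4% and 16.2% of all genes were called lower. The part of sensory neurons in the counts of Trpm8 and Trpa1 was not tested. Over the 5 libraries of a group, 3 counts correspond to 0.00600 CPM at day 0, 0.00721 CPM at day 1 and 0.00700 CPM at day 12. This is the detection limit of a pooled group, and the summed count was 0 for Trpm8 at day 12 and for Trpa1 at both times at 31°C.

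For these 3 genes the tests differed. The two-sided exact permutation test of the mean CPM, the test set for genes under the filter, gave p-values from 0.167 to 1 over 9 tests (adjusted p from 0.5 to 1), where the smallest p the design allows is 0.00794. The lowest value was that of Trpa1 at both times against day 0 and of Trpm8 at day 12 against day 1, each of which set 5 libraries at 0 against a group in which 3 libraries had counts, and 0.167 is the smallest p that such counts can give. Without the filter on low counts, edgeR called Trpa1 lower at day 1 (adjusted p = 0.0296) and day 12 (adjusted p = 0.0259), and Trpm8 lower at day 12 against day 1 (adjusted p = 0.0384), whereas DESeq2 gave adjusted p-values of 0.221, 0.202 and 0.25 for these. In the deepest library their detection limits were 0.00408 CPM per kilobase for Trpv3, 0.00503 for Trpm8 and 0.00558 for Trpa1.

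**Figure D5:**
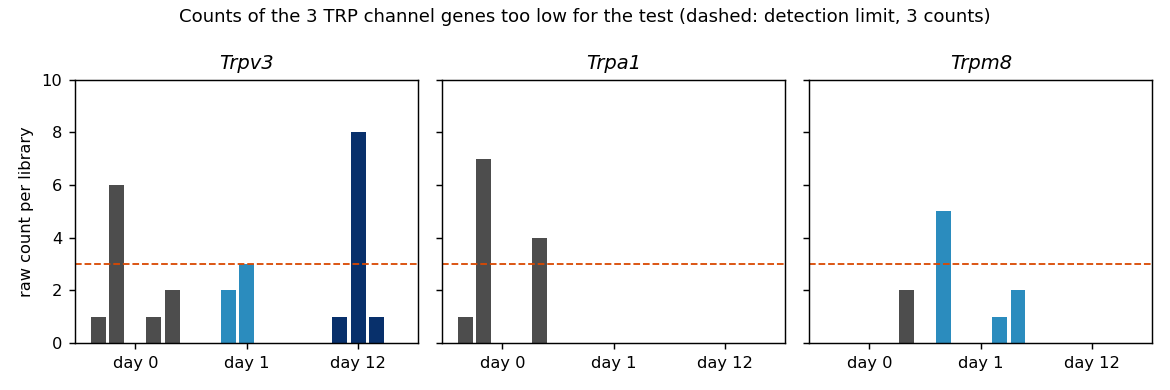
Raw counts of Trpv3, Trpa1 and Trpm8 in the 15 libraries (bars, 5 per group in replicate order), with the detection limit of 3 counts dashed. The highest bar is 8 counts of Trpv3 in day 12 replicate 3, and Trpa1 is at 0 in all libraries of day 1 and day 12.

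The library numbers in the labels fall into a series of 11 and a series of 4, and the smaller one, with 1 day 0 library, 2 day 1 libraries and 1 day 12 library, cannot be tested by itself. Within the 11, the log2 fold changes at day 1 against day 0 were -4.12 for Trpm2, -0.73 for Trpv2 and -0.61 for Trpv1. At day 12 against day 0 they were -3.15 for Trpm2, -1.35 for Trpv2 and 1.70 for Trpv1. The calls against day 0 held for the same genes there, while Trpm2 at day 12 against day 1 (0.98, adjusted p = 0.189, edgeR) did not pass. Trpm3 was called lower at day 12 against day 1 within the 11, unlike over all libraries.

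The genes whose log2 levels followed those of the called channels most closely over the 15 libraries were found among 12132 genes that averaged 1 CPM or more, each centred on its own mean. For Trpm2 these were Gm16576, Cxcl3 and Spef1, with root mean square differences of 0.50, 0.55 and 0.58 (log2). Cxcl3, a chemokine, had means of 4.58, 0.569 and 0.863 CPM at days 0, 1 and 12. For Trpv2 they were Lenep (0.31), Nog (0.31) and BC068157 (0.32), and Nog, which encodes the BMP inhibitor noggin, had means of 2.35, 1.47 and 0.949 CPM. For Trpv1 they were Gm8883 (0.63), Ch25h (0.65) and Sema5a (0.66), and Ch25h, the enzyme that makes 25-hydroxycholesterol, had means of 13.1, 8.30 and 36.9 CPM. The low counts of Trpm2 and Trpv1 limit how close any gene could come.

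The counts of called genes in the following lists stand beside the shares of all genes: at day 1, 7.71% rose and 13.4% fell past both thresholds, and at day 12 these shares were 13% and 16.2%. Of the 18 other TRP genes, 7 were tested, and 3 of the remaining 11 never exceeded 3 counts. At day 1, Mcoln2, an endolysosomal channel, was called higher (log2 fold change 1.20) and Pkd2l2 lower (-1.79), and at day 12 both were called again (1.24 and -1.30). Trpc2 was called lower at day 12 (-0.68), but all of its exon bases are shared with other annotated genes, so its counts are uncertain. Trpm6, the partner of Trpm7 in magnesium uptake, was at 6.31 CPM at day 0, 4.83 CPM at day 1 and 6.05 CPM at day 12, and its log2 fold changes of -0.39 and -0.05 were not called. Among 7 tested of the other thermo- and mechanosensitive channels, Ano1, a calcium-activated chloride channel opened by heat, was called lower at both times (-0.63 and -0.96), and Grik2, a glutamate receptor subunit known to act in cold sensing, was called higher at day 12, from 0.105 to 1.64 CPM.

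Genes that act with these channels were described from lists chosen in the same way. Of 12 magnesium transport genes, 5 were called at day 1, 2 of them higher, and 4 at day 12, 1 of them higher, with a median log2 fold change of -0.01 and -0.38 over the list. The share called at day 12 was near that of all genes, of which 13% were called higher and 16.2% lower. Nipal1 rose by 1.80 and 2.46 on the log2 scale, and Magt1 changed by -1.93 and -1.21, Nipal3 by -1.97 and -1.07 and Cnnm2 by -0.60 and -0.97. Of 14 tested genes of calcium stores and store-operated entry, 8 passed the adjusted p at day 1 without reaching the fold limit. This was a smaller share than the 71.5% of all genes that passed the adjusted p alone. At day 12, 4 were called, of which 3 were lower. The calcium pump Atp2a3 changed by -1.68 there, the plasma membrane pump Atp2b4 by -1.05 and Orai3 by -0.67, while the store release channel Itpr3 changed by 0.60.

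Receptor signalling through phospholipase C sensitises several TRP channels. Of 17 tested genes of that list, 2 were called lower at day 1, and 4 at day 12, of which 3 were lower. These shares were near or below those of all genes, of which 13.4% were called lower at day 1, and at day 12 16.2% lower and 13% higher. Plcd4 changed by -1.34 and -3.72, Plcg2 by -1.53 and -0.64, Plcb1 by -0.67 at day 12 and Pip5k1c, a kinase that makes the lipid substrate, by 0.81 at day 12. Of 16 calmodulin and calcineurin genes, which read and regulate calcium entry, Calm3 was called lower at day 1 (-0.74). At day 12 Rcan2 was called higher (0.96), and Rcan1 (-0.97) and Nfatc2 were called lower. Among 7 genes that make or break down the Trpm2 ligand ADP-ribose and its precursors, 1 was called at each time. Bst1 was lower at day 1 (-0.59) and Cd38 higher at day 12 (0.76). This is near the share of all genes called in the same direction, 13.4% down at day 1 and 13% up at day 12. In the other direction these shares were 7.71% up at day 1 and 16.2% down at day 12.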

How the data were processed

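Reads of 15 RNA-seq libraries of cultured adipocytes were aligned by the authors to the mouse genome build mm10 with TopHat2 2.0.13 and Bowtie2 2.2.1, as the submitters' processing notes give it, and the deposited values are raw counts of reads per gene made by the authors with HTSeq, whose version and strand setting are not given in the sources used here. Reads of a gene and of an overlapping gene on the other strand may therefore be mixed. The authors also deposited regularised log values, not used here, and DESeq2 comparison tables that hold mean scaled counts, log2 fold changes, standard errors, test statistics, p-values and adjusted p-values, which were not used either. The members and the gene lists were chosen with earlier results of these data known.

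Counts were scaled by TMM and filtered with filterByExpr (minimum count 10), which left 14293 of 18804 genes, and tested with glmQLFTest of edgeR 4.0.16 (R 4.3.3), using a single model of all 15 libraries without covariates (thresholds: adjusted p 0.05, fold 1.5). The fit was tested on simulated data. Standard errors were derived from the F value. The genes named were all members, for each called member the 3 genes nearest in profile, and, of the called genes averaging 1 CPM or more, up to 4 per list with the largest change. Mcoln2, Pkd2l2, Grik2, Trpm6, Nfatc2 and the markers named fall outside this rule and were chosen after their values were seen. Exact permutation tests used SciPy 1.17.1. Exon lengths and positions came from the GENCODE annotation of GRCm38, the same build as mm10, and promoters from RefSeq. Alternatives were other scalings, filters, fold limits, DESeq2 1.42.0, covariates, subsets of libraries and leaving out each library in turn.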

Additional observations from a re-analysis of the deposited data

Results flagged for a closer look

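In 4 of the 27 groups of 5 libraries examined, 1 library stood apart from the other 4 by the gap test, which chance does in about 1 in 20 groups. That rate does not hold for groups near 0 counts, such as those of Trpv3 and Trpm8 below. When 1 library alone has counts, as for Trpm8, it stands apart by construction. The 4 groups can therefore not be weighed against that rate. Trpv3 in day 12 replicate 3 was at 0.0972 CPM (8 counts), with the next library at 0.0143 CPM. Trpm8 in day 0 replicate 5 was at 0.0218 CPM, from 2 counts against 0 in the other 4 libraries. Trpv4 in day 1 replicate 4 was the lowest of its group at 31.0 CPM, with the next at 32.1 CPM, and Trpv4 in day 12 replicate 2 was the highest of its group at 27.8 CPM.

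Trpv1 differed between day 12 and day 1 by 2.23 (log2, day 12 minus day 1, called by edgeR), with all 5 day 12 libraries above all 5 day 1 libraries. For Trpm2 the same difference was 1.24, with ranges that overlapped. Trpm2 passed the filter only through the day 0 libraries, was not tested when day 12 and day 1 were fitted by themselves, and lost this call without any of 6 libraries, with the replicate block (adjusted p = 0.0597) and in the larger library series (adjusted p = 0.189).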

How the results depend on the processing

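The calls of Trpm2 and Trpv2 as lower at day 1 and day 12, and of Trpv1 as higher at day 12, were made in every alternative that tested the gene. A mean of at least 1 CPM removed Trpm2 and Trpv1, which left 1 member called at day 1, 1 at day 12 and 0 at day 12 against day 1. With the adjusted p alone 6 were called in each comparison, out of 71.5%, 76.6% and 67.2% of all genes. With no filter 4 were called at day 1, Trpa1 and Trpm3 being added. Trpa1 had an adjusted p of 0.0296 there, against 0.221 with DESeq2 and an exact permutation p of 0.167. Leaving out 1 library in turn gave from 2 to 4 calls at day 1 (4 without day 0 replicate 2 or replicate 4), 3 at day 12 throughout, and from 1 to 2 at day 12 against day 1. With the library series as a covariate 4 were called at day 1, and with only the 2 groups compared 1 was called at day 12 against day 1, where Trpm2 failed the filter.

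With the replicate number as a block, 4 members were called at day 1, Trpm3 (0.59) and Trpv1 (-0.83, adjusted p = 0.0427) being added, 3 at day 12, and 1 at day 12 against day 1, Trpm2 (1.21) having an adjusted p of 0.0597. Whether the numbers pair the libraries is not settled, since deviations of same-numbered libraries correlated weakly, at -0.0255 to 0.0436. The best match had the same number for replicates 2, 3, 4 and 5 between day 1 and day 12. Between day 0 and day 1 it did for replicates 1, 2 and 4, and between day 0 and day 12 for replicate 5 only.

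Trpm3 at day 12 against day 0, not called, changed sign in the larger library series (-0.0385) and without day 0 replicate 1 or replicate 5 (-0.0299), in a range from -0.0467 to 0.0803 when 1 library was left out. Differences of Trpv3 changed sign when 1 library was left out, in ranges from -0.0144 to 0.00179 CPM at day 1, from -0.0144 to 0.0145 CPM at day 12 and from -0.00536 to 0.0189 CPM between them. Called expressed at 0.5 CPM, Trpv1 and Trpm2 left 0 members in the low class. The cause of these changes was not tested. Depth limits Trpv3, Trpm8 and Trpa1, at a few counts per library. It also limits Trpm2 at day 1 and day 12, with 1 to 16 counts per library, against 41 to 77 at day 0.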

Other observations

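Day 0 replicate 2 held the highest count of Trpv3 (6) and of Trpa1 (7) in its group, together with the highest Trpm2 level (0.829 CPM) and the lowest Trpv1 level (0.0861 CPM). Of the markers of other cell types, endothelial genes summed to at most 1.37 CPM and skeletal muscle genes to at most 1.62 CPM in any library. Other lists were higher. The 8 fibroblast and progenitor genes summed to 9906 to 10173 CPM at day 0, 8727 to 9024 CPM at day 1 and 8107 to 8462 CPM at day 12. This was above the sum of the 8 adipocyte genes in each group. Schwann cell genes summed to between 58.4 and 78.5 CPM. The part of such cells in the TRP levels was not tested.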
